A study of Mus musculus with 8 samples.

Results

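CatSper is the calcium channel of the sperm tail. Its 8 subunit genes Catsper1, Catsper2, Catsper3, Catsper4, Catsperb, Catsperd, Catsperg1 and Catsperg2 were looked up by symbol in a table of normalised read counts from mouse spermatids. All 8 were present among 16349 genes, and all 8 were among the 15685 genes tested. RNA was sequenced from elongating spermatids, the late haploid cells that compact their nucleus and build a tail, and from round spermatids, the earlier haploid cells. Each stage came from Carm1 conditional knockout (cKO) testes, called KO-labelled here, and from wild-type (WT) testes, both on the C57BL/6 strain, with 2 libraries in each of the 4 groups. CARM1 is an arginine methyltransferase and transcriptional coactivator. Per the labels' protocols, a sample was a pool of cells from 8 testes, separated by centrifugal elutriation (a sorting by size and density), and the libraries were poly A selected. The sources used here give neither the Cre driver of the knockout nor the age of the mice. No label ties the libraries of a group to different animals. A p-value therefore rests on the spread of these libraries alone, and that spread may be technical.

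The channel opens at alkaline pH inside the tail and lets calcium in, and that calcium drives the strong, asymmetric beat called hyperactivation, without which mouse sperm do not fertilise. CatSper1, CatSper2, CatSper3 and CatSper4 together form the pore. CatSperβ, CatSperγ and CatSperδ are auxiliary subunits that span the membrane and carry large domains outside the cell, and are made by Catsperb, Catsperg1, Catsperg2 and Catsperd. Mice carry a pair of genes for CatSperγ. The complex is assembled while the tail is built, and its genes had reads in both kinds of spermatid here.

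Catsperg2 (ENSMUSG00000049123) and Catsperg1 (ENSMUSG00000049676) lie on the minus strand of the same chromosome of the GRCm38 build, at chr7:29697219-29727032 and chr7:29181321-29214035, with 483.2 kb between them. Their coding sequences in the GENCODE M21 annotation, 3435 bases for Catsperg2 and 3453 bases for Catsperg1, were identical at 3310 of 3432 aligned bases, or 96.4%, and the longest identical run was 341 bases. Of all 50-base windows in the transcripts of Catsperg2, 44.1% were also found in transcripts of Catsperg1, and 43.0% of the windows of Catsperg1 were found in Catsperg2. A short read from such a window cannot be given to either gene by its sequence alone, and the sources used here do not say how the authors' counting treated it. The values of both genes therefore carry that uncertainty. The 120 coding bases that tell them apart best, from base 1642 to base 1761 counted from the start codon of each, are printed to show what a read must cover to be assigned. Capitals mark the 19 bases that differ.
Catsperg2: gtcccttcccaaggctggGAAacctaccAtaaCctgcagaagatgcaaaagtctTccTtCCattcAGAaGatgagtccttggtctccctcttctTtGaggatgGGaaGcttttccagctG
Catsperg1: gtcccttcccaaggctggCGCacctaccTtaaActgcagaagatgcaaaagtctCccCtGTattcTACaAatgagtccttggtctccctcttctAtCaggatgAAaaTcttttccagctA

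The other members do not share this problem to the same degree. Of the 50-base windows of Catsperb (chr12:101404653-101626009, plus strand), 9.27% were found in Gm18795, and 0.572% of those of Catsper4 (chr4:134211970-134227383, minus strand) were found in another gene. No window of Catsper1 (chr19:5335741-5344280, plus strand), Catsper2 (chr2:121392631-121413792, minus strand), Catsper3 (chr13:55784568-55808998, plus strand) or Catsperd (chr17:56628143-56664456, plus strand) was found in another gene. Catsper2 overlapped the exons of Pdia3 on the opposite strand by 18 bases, 0.487% of its exon length.

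The title of the study names CREM, a spermatid transcription factor of the family that binds the cAMP response element (CRE), so promoters were searched on both strands for the full element TGACGTCA and for its core TGACG. RefSeq promoters of GRCm38.p6, 250 bases before to 50 after a transcript start, were at hand for 6 of the 8 members. No promoter of these 6 held the full element, against 1.79% of all 32851 promoters of the same length, and any full element would also count as a core. The core was found in Catsper2 (1 site) and in the first of the Catsperd starts (3 sites), against 20.8% of all promoters with at least 1. The other Catsperd promoter, chr17:56627893-56628192, spans the start of the gene as annotated at 56628143, and held 0 core sites. The first, which is printed below, lies wholly before that gene start. A match describes the letters only and is not a bound site. The promoters of Catsper2, Catsperd and Catsperg1 are shown because their transcripts took different courses between the stages, lower, nearly level and higher in elongating than in round cells on the deposited scaling. They lie at chr2:121413743-121414042 (minus strand), chr17:56626797-56627096 (plus strand) and chr7:29213984-29214283 (minus strand), and capitals mark the core on either strand.
Catsper2: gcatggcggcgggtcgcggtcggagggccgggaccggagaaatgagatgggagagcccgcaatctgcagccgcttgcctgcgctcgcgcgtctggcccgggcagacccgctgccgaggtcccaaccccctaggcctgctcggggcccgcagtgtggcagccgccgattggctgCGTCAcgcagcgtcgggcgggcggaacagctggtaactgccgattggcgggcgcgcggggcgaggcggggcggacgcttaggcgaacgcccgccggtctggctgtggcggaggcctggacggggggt
Catsperd: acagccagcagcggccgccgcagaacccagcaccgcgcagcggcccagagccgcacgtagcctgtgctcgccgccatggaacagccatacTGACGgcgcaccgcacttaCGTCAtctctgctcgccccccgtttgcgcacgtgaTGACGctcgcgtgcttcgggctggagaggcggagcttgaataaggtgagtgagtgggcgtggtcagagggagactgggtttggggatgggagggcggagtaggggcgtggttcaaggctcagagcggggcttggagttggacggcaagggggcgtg
Catsperg1: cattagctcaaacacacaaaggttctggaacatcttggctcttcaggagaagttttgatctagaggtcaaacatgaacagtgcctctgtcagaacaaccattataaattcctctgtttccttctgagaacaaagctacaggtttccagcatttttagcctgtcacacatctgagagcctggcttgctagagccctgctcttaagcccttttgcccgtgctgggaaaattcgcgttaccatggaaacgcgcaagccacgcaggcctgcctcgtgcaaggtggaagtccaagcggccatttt

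Values are normalised reads, the reads of a gene divided by a size factor of its library. Libraries held between 17190962 and 23526694 reads. The size factors were 0.516 and 0.530 in elongating KO-labelled libraries, 0.776 and 0.693 in elongating WT, 1.57 and 1.77 in round KO-labelled and 1.57 and 1.65 in round WT libraries. The 50 most abundant genes took 34.8 to 34.9% of reads in elongating KO-labelled, 31.9% in elongating WT, 10.2 to 10.3% in round KO-labelled and 10.1% in round WT libraries. Carm1 had 8157 and 7993 normalised reads in elongating KO-labelled libraries, against 4308 and 4534 in elongating WT. In round spermatids it had 1174 and 1343 in KO-labelled libraries, against 1649 and 1686 in WT. The gene was thus lower than WT in round KO-labelled cells (log2 difference -0.41, adjusted p 3.8e-05) and higher than WT in elongating KO-labelled cells (0.87, adjusted p 2.7e-09), which goes against the label there. Whether the elongating labels were exchanged was not tested. An exchange would turn the sign of every elongating KO-labelled minus WT difference below, that of Catsperg2 included, and would change each difference between the stages that uses them. Reads over the whole gene do not check a deletion of a part of it.

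Markers of both stages were detected, and they moved with the label in elongating cells. The summed level of 5 elongating-spermatid markers (Prm1, Prm2, Tnp1, Tnp2, Odf1) was 3927356 to 4031560 in elongating KO-labelled, 2238352 to 2244898 in elongating WT, 114626 to 120319 in round KO-labelled and 103967 to 107178 in round WT libraries. The summed level of 5 round-spermatid markers (Acrv1, Spaca1, Spaca3, Acr and Catsper3, itself a member) was 2151 to 2221, 4157 to 4194, 13870 to 13978 and 12511 to 12717 in the same order of groups. In elongating cells 5 of 5 elongating markers were higher and 5 of 5 round markers lower in KO-labelled than in WT libraries. In round cells 4 of 5 elongating markers and 2 of 5 round markers were higher in KO-labelled libraries, and none of either list was lower. Of all genes 27.3% were called higher and 27.7% lower in elongating KO-labelled cells, and 19.4% and 12.6% in round ones. Of 7 spermatocyte markers, 1 was higher and 5 were lower in elongating KO-labelled cells, with sums of 1359 to 1402 against 1847 to 1958 in WT. Macrophage markers (8 of 8 listed) summed to 1943 to 2017 in elongating KO-labelled and 4490 to 4530 in elongating WT libraries, and 7 of 8 listed Sertoli markers to 4094 to 4179 and 5697 to 5761. Peritubular markers (4 of 4) summed to 1531 to 1571 in elongating KO-labelled and 572 to 611 in elongating WT libraries, and 3 of 5 listed Leydig markers to 102 to 118 and 51.9 to 74.8. Between the labels in elongating cells 8 of 8 macrophage and 5 of 7 Sertoli markers were lower, 4 of 4 peritubular markers higher and 0 of 3 Leydig markers called. In round cells 4 of 7 Sertoli markers were lower (sums 156 to 171 in KO-labelled, 255 to 260 in WT libraries) and 4 of 8 macrophage markers higher (183 to 201 against 124 to 156). Spermatocyte markers there summed to 6701 to 6744 in KO-labelled and 7319 to 7547 in WT libraries, with 1 of 7 higher and 4 lower. No marker in the table was at 0 in a whole group, and the part of these cells in the results on the subunits was not tested.

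**Figure D1:**
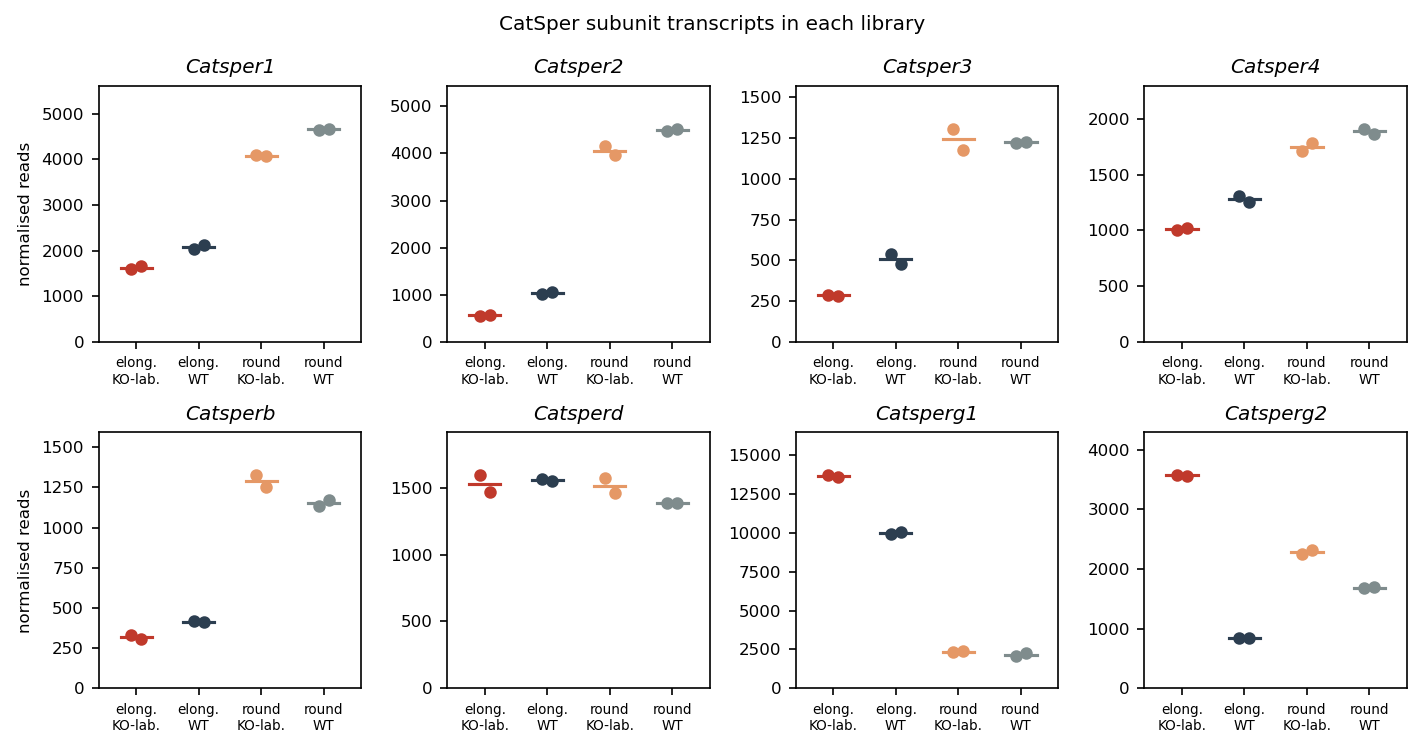
Normalised reads (vertical axes, each from 0) of the 8 CatSper subunit genes in each library. Points are libraries and bars the mean of a group of 2. Catsperg2 lies at 3567 and 3576 in elongating KO-labelled libraries and at 842 in both elongating WT libraries, while Catsper1 to Catsper4 and Catsperb are lowest in elongating KO-labelled cells.

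Levels can be set against each other only per length, so normalised reads were divided by the length of each gene's merged exons in kilobases (kb). In elongating KO-labelled cells the order, from high to low mean level per kb, was Catsperg1 (1940), Catsper1 (744), Catsperg2 (508), Catsper4 (482), Catsperd (427), Catsper3 (210), Catsper2 (152) and Catsperb (58.2). In elongating WT cells it was Catsperg1 (1419), Catsper1 (948), Catsper4 (611), Catsperd (433), Catsper3 (375), Catsper2 (283), Catsperg2 (120) and Catsperb (75.2). Catsperg2 thus held the third place of 8 in elongating KO-labelled cells and place 7 in elongating WT cells. No neighbours in these orders overlapped between libraries. In round KO-labelled cells the order was Catsper1 (1864), Catsper2 (1099), Catsper3 (913), Catsper4 (832), Catsperd (422), Catsperg1 (336), Catsperg2 (325) and Catsperb (233), again with no overlap between neighbours. Round WT cells had the same order, from 2130 for Catsper1 through 308 for Catsperg1 and 240 for Catsperg2 to 208 for Catsperb, and there Catsper3 (899) and Catsper4 (899) overlapped. The pore genes led in round cells, and a γ gene led in elongating cells.

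The first comparison asked how the knockout label changes the subunits in elongating spermatids. Of the 8 subunit genes, 2 were called higher and 5 lower in KO-labelled cells, and Catsperd was not called. The call rests on limma, fitted to log2(value + 1) of all genes, with a Benjamini-Hochberg adjusted p under 0.05. Of all 15685 genes, 27.3% were called higher and 27.7% lower, so calls were common and 2 of 8 higher is close to that background. The median log2 difference was -0.35 over the 8 genes and -0.07 over all genes. In a bulk sample fewer cells of a type and less RNA per cell cannot be told apart.

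All 4 pore genes fell. Catsper2 had 555 and 566 normalised reads in elongating KO-labelled libraries, against 1025 and 1067 in WT. Its log2 difference of -0.90 (SE 0.04, adjusted p 2.3e-10) was the lowest of the 8. Catsper3 had 289 and 283 in KO-labelled and 541 and 479 in WT libraries, a difference of -0.83 (SE 0.07, adjusted p 1.1e-07). The libraries of both genes did not overlap between the groups. Non-overlap of so few libraries says little, and the share of all genes that did not overlap is not given here. Catsper1, which is required for the channel current, had 1606 and 1651 in KO-labelled and 2036 and 2114 in WT libraries, a difference of -0.35 (SE 0.04, adjusted p 1.9e-06). Catsper4 had 1003 and 1022 against 1310 and 1257, a difference of -0.34 (SE 0.05, adjusted p 2.0e-05). The fall of Catsper1 and Catsper4 was thus smaller than that of Catsper2 and Catsper3. Their libraries did not overlap between the groups either, with the same limit. The 5 round-spermatid markers fell beside them, with a median log2 difference of -0.89, and their part in the result was not tested.

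Among the auxiliary subunits the genes went different ways. Catsperb had 334 and 309 normalised reads in elongating KO-labelled and 422 and 410 in WT libraries, and fell by 0.37 on the log2 scale (SE 0.06, adjusted p 1.5e-04). Catsperd had 1594 and 1469 in KO-labelled libraries, against 1564 and 1547 in WT, and its libraries overlapped (difference -0.02, 95% interval -0.14 to 0.09, adjusted p 0.72). Catsperg1 had 13719 and 13615 against 9922 and 10065, and rose by 0.45 (SE 0.04, adjusted p 7.3e-08). Catsperg2 had 3576 and 3567 against 842 and 842, and rose by 2.08 (SE 0.04, 95% interval 1.995 to 2.171, adjusted p 4.4e-14), which is 4.24-fold. The libraries of each γ gene agreed closely within a group and lay far apart between groups. Only 188 of all genes tested had a higher log2 difference than Catsperg2.

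These directions hold on the deposited scaling. Scaling each library to its total reads instead moved the median log2 difference of all genes by -0.54, to -0.61. On that scale Catsperg2 was the only one of the 8 called higher (1.52, adjusted p 3.1e-13) and the other 7 were called lower, with Catsperg1 at -0.11 (adjusted p 0.010). Of all genes 8.89% were called higher and 62.8% lower on that scale. With totals taken without the 50 most abundant genes, the median moved by -0.48, 1 member was called higher and 6 lower, against 10.6% and 59.2% of all genes, and Catsperg1 was at -0.05 (adjusted p 0.23). Catsperg2 was higher under both, and the calls of the 7 members called on the deposited scaling were kept without each single library in turn.

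**Figure D2:**
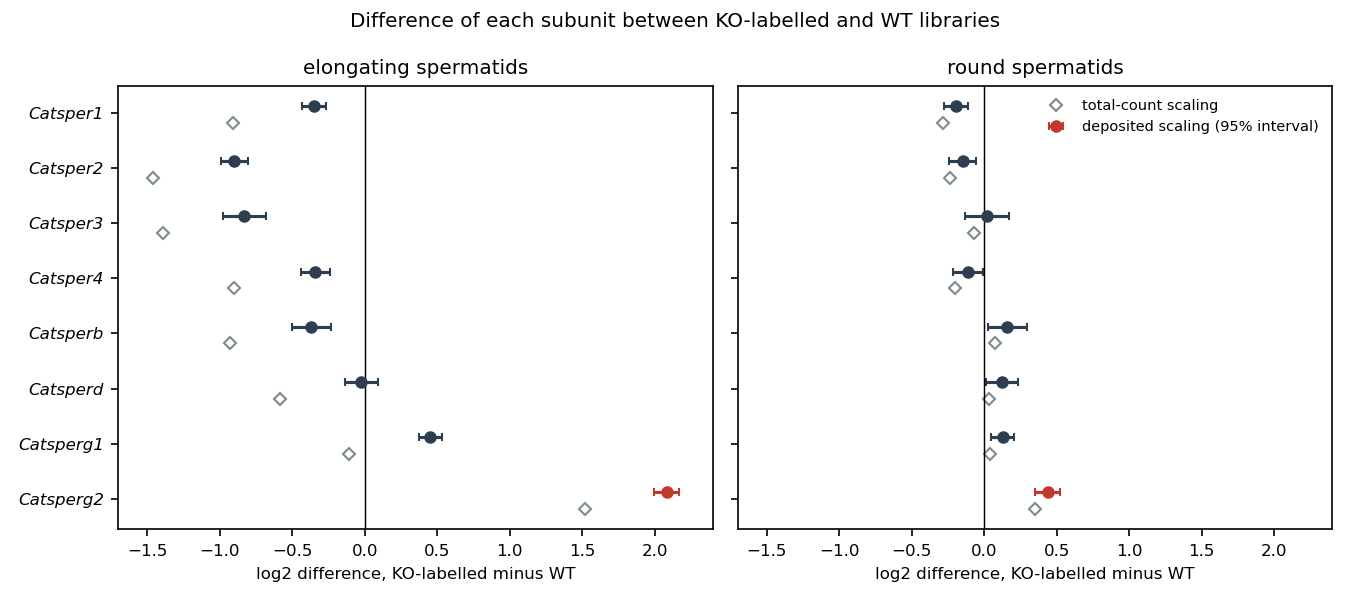
Log2 difference, KO-labelled minus WT, of each subunit gene in elongating (left) and round (right) spermatids. Filled points use the deposited scaling with 95% intervals, with Catsperg2 in red, and open diamonds use total-count scaling. Catsperg2 lies at 2.08 in elongating and 0.44 in round cells on the deposited scaling and is above 0 on both scales, while Catsperg1 in elongating cells lies at 0.45 on the deposited and -0.11 on the total-count scale.

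Catsperg2 was then set against each other subunit. The log2 ratio of Catsperg2 to the gene was fitted over all genes, so that the scaling of a library cancels out. In elongating cells the KO-labelled minus WT difference of Catsperg2 was above that of Catsper2 by 2.98, of Catsper3 by 2.91, of Catsperb by 2.45, of Catsper1 by 2.43, of Catsper4 by 2.43, of Catsperd by 2.11 and of Catsperg1 by 1.63 on the log2 scale. All 7 passed the test, with adjusted p from 2.0e-06 to 2.5e-06. The fit was added after seeing the data, and all 7 tests share the same Catsperg2 values. They are thus not independent, and give no separate support for singling out Catsperg2. The same test placed Catsperg2 above 96.5% of all 15684 other genes, so 7 of 7 is near the background and tells Catsperg2 apart from most genes as much as from the subunits. The smallest gap was to its near copy Catsperg1.

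Catsperg2 was a larger part of the γ reads in KO-labelled than in WT libraries at both stages. Catsperg2 made up 20.7% and 20.8% of the summed reads of both γ genes in elongating KO-labelled libraries, against 7.82% and 7.72% in elongating WT libraries. In round spermatids it made up 48.8% and 49.4% in KO-labelled libraries, against 44.5% and 43.1% in WT libraries. Within each stage the libraries did not overlap between the labels. The sum of both genes does not depend on how reads from shared windows were divided between them. It was 17296 and 17182 in elongating KO-labelled and 10764 and 10907 in elongating WT libraries, and the sum rose by 0.67 on the log2 scale (SE 0.03, adjusted p 1.8e-10). Under total-count scaling the sum was higher by 0.11 (adjusted p 0.0058).

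**Figure D3:**
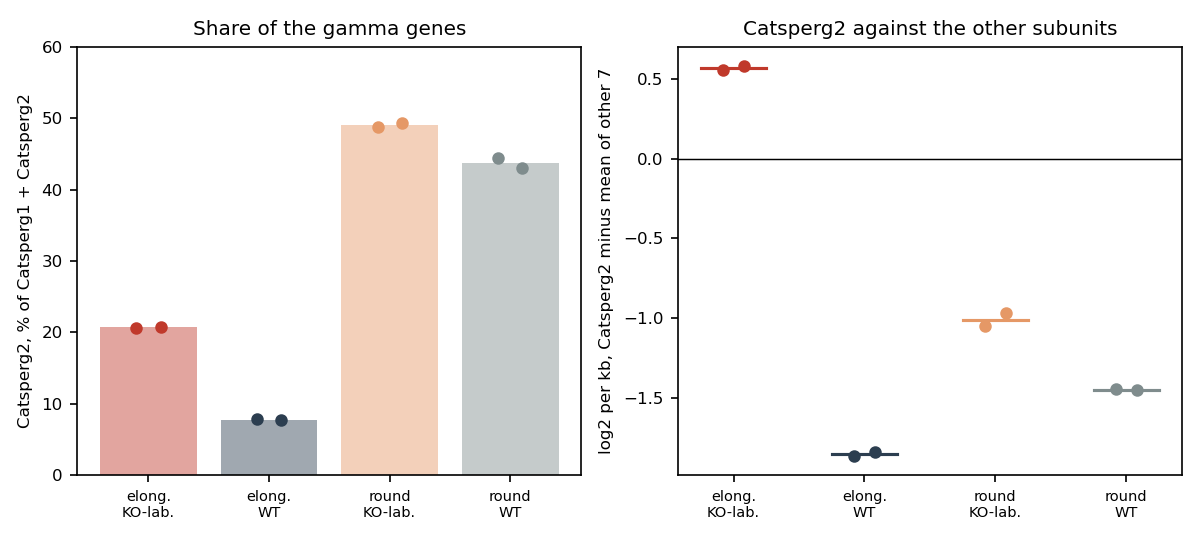
Left, the share of Catsperg2 in the summed reads of Catsperg1 and Catsperg2 (percent, bars are means of 2 libraries and points are libraries). Right, the log2 level of Catsperg2 minus the mean log2 level of the other 7 subunit genes, each per kb of merged exons, with points for libraries and lines for means. The share is 20.7% and 20.8% in elongating KO-labelled libraries and 7.82% and 7.72% in elongating WT libraries, and the log2 value is 0.56 and 0.58 in elongating KO-labelled and -1.86 and -1.84 in elongating WT libraries.

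As one value per library, the log2 level of Catsperg2 minus the mean log2 level of the other 7 subunits, each level per kb of merged exons, was 0.56 and 0.58 in elongating KO-labelled libraries, against -1.86 and -1.84 in elongating WT. It was -1.05 and -0.97 in round KO-labelled libraries, against -1.45 in both round WT libraries. KO-labelled minus WT came to 2.42 in elongating and 0.44 in round cells, and in this difference the lengths cancel out. No p is given for this value, because the members were chosen with results of these data known.

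In round spermatids the subunit genes differed less with the label. Of the 8, 2 were called higher and 2 lower in KO-labelled cells, and 4 were not called. Over all genes 19.4% were called higher and 12.6% lower. Catsperg2 had 2253 and 2314 normalised reads in round KO-labelled libraries, against 1676 and 1697 in WT, and rose by 0.44 (SE 0.04, 95% interval 0.35 to 0.53, adjusted p 1.6e-06), which is 1.35-fold. Catsperg1 had 2362 and 2373 in KO-labelled and 2092 and 2243 in WT libraries, a difference of 0.13 (adjusted p 0.016). Its groups did not overlap, and the call was lost without round KO-labelled library 2 or round WT library 1 and under both total-based scalings (adjusted p 0.0045 to 0.44 over all alternatives). The sum of the γ genes was 4615 and 4687 in KO-labelled and 3768 and 3940 in WT libraries, and rose by 0.27 (adjusted p 1.5e-05).

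The pore genes showed small differences in round cells. Catsper1 had 4085 and 4070 normalised reads in round KO-labelled libraries, against 4647 and 4673 in WT, and fell by 0.19 (SE 0.04, adjusted p 0.0013). Catsper2 had 4151 and 3969 against 4469 and 4526, a difference of -0.15 (adjusted p 0.019). That call was lost without round KO-labelled library 2 or without either WT library (adjusted p 4.7e-04 to 0.16 over all alternatives). Catsper4 had 1708 and 1786 in KO-labelled and 1913 and 1863 in WT libraries, a difference of -0.11 (adjusted p 0.086). Catsper3 had 1307 and 1178 in KO-labelled libraries, which overlapped the 1222 and 1226 of WT (difference 0.02, 95% interval -0.13 to 0.17). For the auxiliary genes, Catsperb had 1326 and 1249 in KO-labelled and 1132 and 1171 in WT libraries (difference 0.16, adjusted p 0.066). Catsperd had 1569 and 1460 against 1389 and 1388 (difference 0.12, adjusted p 0.085). Catsperb and Catsperd did not overlap between the groups, but non-overlap of 2 against 2 libraries says little. The potassium channel gene Kcnu1, not called in round cells (adjusted p 0.81), did not overlap there either. Catsperb and Catsperd were called higher by edgeR's quasi-likelihood test on the recovered reads, which called 4 members higher and 3 lower. The shares of all genes that did not overlap, or that edgeR called, are not given here.

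Against the other subunits in round cells, the difference of Catsperg2 was above that of Catsper1 by 0.63, of Catsper2 by 0.58, of Catsper4 by 0.55, of Catsper3 by 0.42, of Catsperd by 0.31, of Catsperg1 by 0.31 and of Catsperb by 0.28. All 7 passed in the same fit, added after seeing the data (adjusted p 0.0015 to 0.025), where 51.1% of all other genes did. With 1 library fewer, the gaps to Catsper3, Catsperb and Catsperd no longer passed without round KO-labelled library 2, round WT library 1 or round WT library 2, and the gap to Catsperg1 no longer passed without round WT library 2. The adjusted p over their alternatives ran from 0.0077 to 0.11.

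The label's difference itself differed between the stages for 7 of the 8 genes, when the elongating minus the round difference was tested. It was higher in elongating cells for Catsperg2 (by 1.65, SE 0.06, adjusted p 2.7e-10) and Catsperg1 (by 0.32, adjusted p 1.8e-04). It was lower for Catsper3 (-0.85, adjusted p 7.9e-06), Catsper2 (-0.75, adjusted p 2.4e-07), Catsperb (-0.53, adjusted p 2.3e-04), Catsper4 (-0.23, adjusted p 0.014) and Catsper1 (-0.16, adjusted p 0.035). For Catsperd it was -0.15 (adjusted p 0.14). Over all genes 19.3% were called higher and 17.5% lower. The Catsper1 call was lost in 6 of the 8 fits with 1 library left out, namely without any one of the 4 round libraries, elongating KO-labelled library 1 or elongating WT library 2, and in DESeq2. The Catsper4 call was lost without elongating WT library 1, round KO-labelled library 2 or round WT library 2. Under total-count scaling Catsperg1 turned to -0.15 (adjusted p 0.020) while Catsperg2 stayed higher at 1.17, and 1 member was called higher and 7 lower, against 5.47% and 45.1% of all genes.

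The second comparison set elongating against round spermatids. In KO-labelled cells 2 members were called higher and 5 lower in elongating than in round cells, against 42.6% and 41.8% of all genes. In WT cells 2 were called higher and 6 lower, against 41.7% and 40.2% of all genes. The pore genes and Catsperb were lower in elongating cells under both labels. Catsper2 differed by -2.86 in KO-labelled and by -2.10 in WT cells, Catsper3 by -2.11 and -1.26, Catsperb by -1.999 and -1.47, Catsper1 by -1.32 and -1.17, and Catsper4 by -0.79 and -0.56. Their round libraries lay above their elongating libraries throughout. Catsperg1 was higher in elongating cells, by 2.53 in KO-labelled and 2.21 in WT cells. Catsperd was near level on the deposited scaling but lower in elongating cells on both total-based ones, with 0.02 in KO-labelled (adjusted p 0.79) and 0.16 in WT cells (adjusted p 0.0095), a call lost without elongating WT library 1 and in edgeR's test.

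On the deposited scaling Catsperg2 took opposite directions between the stages under the 2 labels, and on both total-based scalings it was lower in elongating cells under each. With the deposited values it was higher in elongating than in round cells of KO-labelled testes (0.65, SE 0.04, adjusted p 8.1e-10), and lower in elongating than in round cells of WT testes (-1.001, SE 0.04, adjusted p 4.0e-12). The KO-labelled value turned to -1.30 under total-count scaling and to -0.83 with totals taken without the 50 most abundant genes. Those scalings moved the median of all genes by -1.88 and -1.44 in the KO-labelled comparison and by -1.43 and -1.04 in the WT one. On total-count scaling 1 member, Catsperg1, was called higher in elongating cells under each label and the other 7 lower. On that scale 16.7% of all genes were called higher and 72.8% lower in KO-labelled cells, and 19.5% and 68.8% in WT cells. The sum of both γ genes was higher in elongating cells by 1.89 in KO-labelled and by 1.49 in WT cells on the deposited scaling, and by -0.05 (adjusted p 0.12) and 0.03 (adjusted p 0.44) on the total-count scale.

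**Figure D4:**
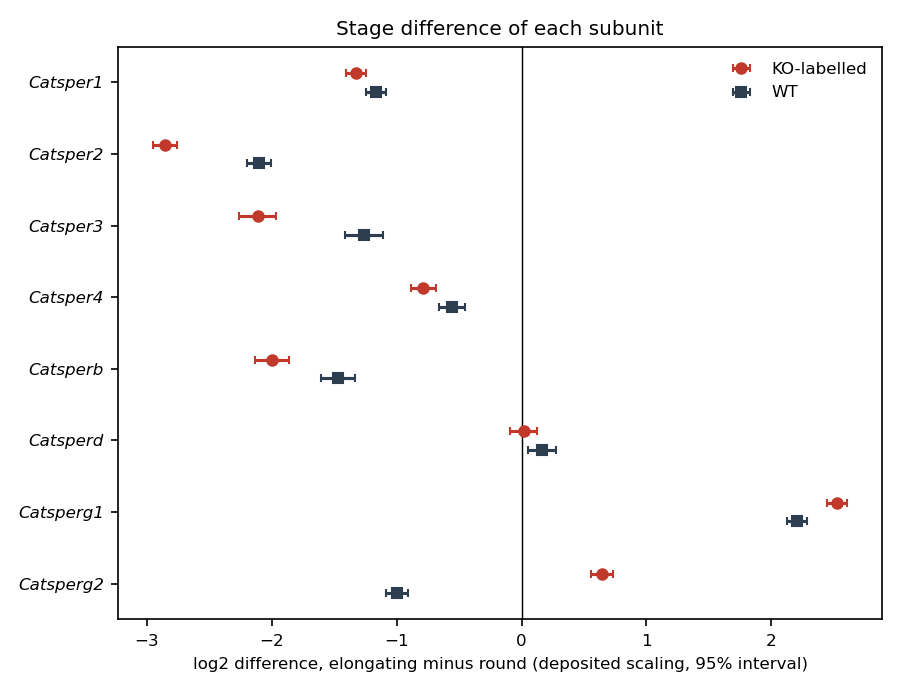
Log2 difference, elongating minus round, of each subunit gene in KO-labelled (circles) and WT (squares) cells, with 95% intervals on the deposited scaling. Catsperg2 lies at 0.65 in KO-labelled and -1.001 in WT cells, and Catsperg1 at 2.53 and 2.21. Under total-count scaling the KO-labelled value of Catsperg2 is -1.30.

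Further genes of the channel complex were taken from a list of 9 accessory subunits and associated proteins, of which 5 were in the table. In elongating cells 0 were higher and 5 lower in KO-labelled libraries (median -0.75), and 0 higher and 5 lower under total-count scaling too. Of all genes 27.3% were called higher and 27.7% lower on the deposited scaling, and 8.89% and 62.8% on total-count scaling. Slco6c1, an organic anion transporter found with the complex, had 242 and 215 normalised reads in elongating KO-labelled libraries, against 460 and 450 in WT (difference -0.99, adjusted p 2.7e-09). Efcab9, a calcium sensor of the channel, had 396 and 381 against 659 and 646 (-0.75, adjusted p 1.4e-07). C2cd6, listed under its older symbol Als2cr11 and needed to bring the complex into the tail, had 1974 and 1949 against 2511 and 2472 (-0.34, adjusted p 9.8e-07). Catspere2, listed as Gm16432 and coding for an ε subunit, had 11.6 and 13.2 against 29.6 and 31.7 (-1.24, SE 0.21, adjusted p 1.7e-04). Catsperz, the partner of Efcab9, had 2267 and 2094 against 2466 and 2496 (-0.19, adjusted p 0.0020), and is listed as Tex40, which was also used for Kcnk4. In round cells 1 of the 5 was higher, C2cd6 with 5599 and 5715 in KO-labelled and 4813 and 4888 in WT libraries (0.22, adjusted p 2.4e-04), and 0 were lower, against 19.4% higher and 12.6% lower of all genes. Elongating cells had less of all 5 than round cells under each label.

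Of 11 genes for membrane potential, pH, cyclic AMP and calcium of sperm, 10 were in the table. In elongating cells 4 were higher and 6 lower in KO-labelled libraries, and 1 was higher and 8 lower under total-count scaling. Of all genes 27.3% were higher and 27.7% lower on the deposited scaling, and 8.89% and 62.8% on the total-count one. Atp1a4, the sodium pump of sperm, had 125004 and 123800.1 normalised reads in elongating KO-labelled libraries, against 52784 and 52495 in WT (1.24, adjusted p 1.3e-13). It was also higher in round KO-labelled cells, with 9836 and 9635 against 7718 and 8026 in WT (0.31, adjusted p 9.2e-07). Plcz1, the sperm factor that starts calcium waves in the egg, was higher by 0.53, Cabyr, a calcium-binding protein of the tail sheath, by 0.29, and Adcy10, the bicarbonate-sensitive adenylyl cyclase, by 0.16. Under total-count scaling these were -0.04, -0.27 and -0.40.

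Among those lower in elongating KO-labelled cells, Slc9c1, the sperm sodium-proton exchanger, had 349 and 334 normalised reads, against 574 and 529 in WT (-0.69, adjusted p 5.1e-08). Prkaca, the catalytic subunit of protein kinase A, had 324 and 385 against 548 and 538 (-0.62, adjusted p 3.2e-06), and Atp2b4, a calcium pump of the plasma membrane, 355 and 322 against 469 and 485 (-0.49, adjusted p 5.8e-06). Kcnu1, the potassium channel of sperm, was at -0.19 (adjusted p 0.0023). Lrrc52, its auxiliary subunit, was at -0.34 (adjusted p 0.017) and Abhd2, a lipid hydrolase, at -0.13 (adjusted p 0.011). The Lrrc52 call was lost without elongating KO-labelled library 2 or either WT library, and the Abhd2 call without elongating KO-labelled library 2 or WT library 1 (adjusted p up to 0.23 and 0.079 over all alternatives). In round cells Atp1a4 and Prkaca (0.29, adjusted p 0.0065) were higher and Adcy10 (-0.34, adjusted p 2.0e-06) and Plcz1 (-0.13, adjusted p 0.029) lower, 2 of 10 each way beside 19.4% higher and 12.6% lower of all genes. The round call of Prkaca was lost without round KO-labelled library 2 or round WT library 1 and under total-count scaling, and that of Plcz1 without 5 of the 8 libraries, all but elongating KO-labelled libraries 1 and 2 and round KO-labelled library 1.

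**Figure D5:**
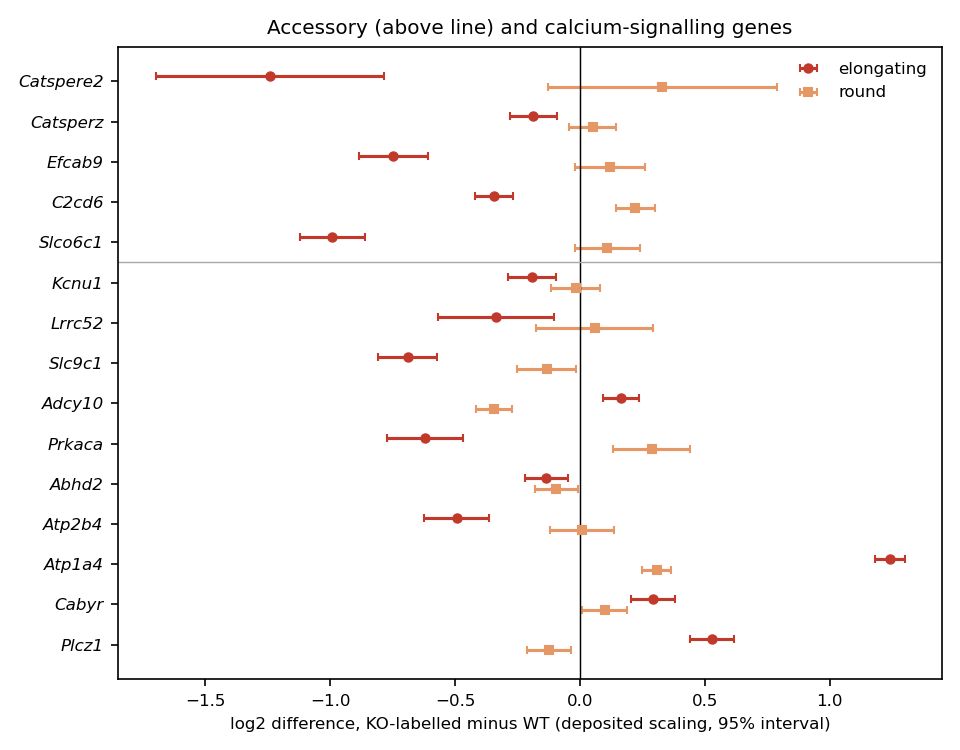
Log2 difference, KO-labelled minus WT, of 5 accessory genes of the channel (above the grey line) and 10 genes of sperm membrane potential, pH, cyclic AMP and calcium (below it), in elongating (circles) and round (squares) spermatids, with 95% intervals on the deposited scaling. All 5 accessory genes lie below 0 in elongating cells, from -0.19 to -1.24, and Atp1a4 lies at 1.24.

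The genes whose profile over the 8 libraries was most like that of Catsperg2 were none of the subunits. Likeness was the root mean square difference of log2 levels, each centred on its own mean, over 15684 genes. Among the 5 closest were Trerf1 (0.178), Rrp12 (0.189), Aacs (0.195) and Apbb3 (0.225). Rrp12 averaged 3194 ± 26.6 normalised reads in elongating KO-labelled, 739 ± 6.95 in elongating WT, 1736 ± 40.9 in round KO-labelled and 1088 ± 6.31 in round WT libraries (SD, n = 2 each). These 4 were higher in elongating KO-labelled than in elongating WT cells, with log2 differences from 1.86 for Trerf1 to 2.59 for Aacs; the measure selects for this. Of the subunits Catsperd was nearest at place 2317, followed by Catsper4 at 4838, Catsper1 at 7064, Catsperb at 9306, Catsper3 at 10726, Catsperg1 at 11783 and Catsper2 at 12974.

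Genes beside the γ genes were listed as the 3 nearest tested ones on each side. They lay 41.5 to 403.4 kb from Catsperg2 but 0.62 to 42.3 kb from Catsperg1, so the spans are not alike. Around Catsperg2, 1 of 6 was higher and 2 were lower in elongating KO-labelled cells, beside 27.3% and 27.7% of all genes. Zfp940, a zinc-finger gene at chr7:29833620-29853669 and 106.6 kb away, averaged 54.5 ± 2.96 normalised reads in elongating KO-labelled and 11.0 ± 2.80 in elongating WT libraries (SD, n = 2 each), a difference of 2.23 (SE 0.27, adjusted p 5.1e-06). In round cells it averaged 69.2 ± 11.0 in KO-labelled and 15.2 ± 1.85 in WT libraries (2.11, adjusted p 3.0e-05). Dpf1 (-0.54, adjusted p 0.025) and Zfp84 (-1.24, adjusted p 0.022) were called lower, and both calls were lost in DESeq2, in the fit of the 4 elongating libraries alone and without elongating WT library 1. Dpf1 was also lost without elongating KO-labelled library 1 and Zfp84 without library 2 and in edgeR's test. The nearest gene below it, Sipa1l3, was at -0.11 (adjusted p 0.080).

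Around Catsperg1, 4 of 6 genes were higher and 2 lower, beside 27.3% and 27.7% of all genes. Ggn, which codes for the germ-cell protein gametogenetin and lies 7.35 kb away, averaged 55037 ± 1779 normalised reads in elongating KO-labelled and 24756 ± 476 in elongating WT libraries (SD, n = 2 each), a difference of 1.15 (adjusted p 3.0e-12). Yif1b (0.43), Spred3 (0.30) and the proteasome subunit gene Psmd8 (0.21) were higher on the deposited scaling and below 0 under total-count scaling. Kcnk6 (-0.99, adjusted p 0.021) and Spint2 (-0.43, adjusted p 0.0038) were lower. The Kcnk6 call was lost in DESeq2 and without elongating KO-labelled library 1 or either WT library, and the Spint2 call without elongating WT library 2.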

How the data were processed

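Poly A RNA of 8 libraries was measured. Tools listed in the submitters' processing notes, with no role or order, are DESeq 1.16.0, HTSeq 0.6.0, TopHat2 2.0.10 and CASAVA 1.8.2, with builds mm10 and GRCm38. The strand setting, annotation and treatment of reads with several matches are not stated there or in the labels. The authors deposited a normalised signal per gene, whose steps gave whole reads for 100% of values (tolerance 1e-06), so reads and size factors were recovered. Genes that reached 10 in 2 or more libraries were tested by limma's trended empirical Bayes fit (limma 3.58.1, R 4.3.3) of log2(value + 1) as one model of 4 group means with 4 residual degrees of freedom. That scale understates the change of low genes. A call is a two-sided Benjamini-Hochberg adjusted p under 0.05 over all tested genes. The test was also run on simulated counts in which all groups shared a mean profile apart from a small set of changed genes. That run does not check the scaling between groups. Alternatives were other pseudocounts, no filter, total-based scalings, edgeR 4.0.16 and DESeq2 1.42.0 on recovered reads, fits of 4 libraries, a replicate block and leaving out each library. The summed γ genes, the ratio fit and the per-kb value of Catsperg2 against the other members were added after seeing the data. Unlike the main fit, the ratio fit used limma's empirical Bayes step without the trend. Symbols were placed with GENCODE M21. The chi-square of recovered reads between libraries of a group was 1.37 to 2.31 per gene. Both libraries of a group were counted, but this value cannot tell separate animals from repeats of the same pool. The members, the lists and the named genes (all members, 2 lists of partner genes, the 5 most alike genes, of which 1 is not reported here, 3 neighbours a side, Carm1) were chosen with earlier results of these data known.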

Additional observations from a re-analysis of the deposited data

Results flagged for a closer look

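The KO-labelled minus WT difference was tested for a difference between the stages (elongating minus round, on the log2 scale, limma). It passed for 7 subunit genes, with Catsperg2 at 1.65, Catsperg1 at 0.32, Catsper1 at -0.16, Catsper4 at -0.23, Catsperb at -0.53, Catsper2 at -0.75 and Catsper3 at -0.85, and for the summed γ genes at 0.40. Among the accessory genes it passed for Catsperz at -0.24, C2cd6 at -0.57, Efcab9 at -0.87, Slco6c1 at -1.10 and Catspere2 at -1.57. Among the genes of membrane potential, pH, cyclic AMP and calcium it passed for Atp1a4 at 0.93, Plcz1 at 0.65, Adcy10 at 0.51, Cabyr at 0.19, Kcnu1 at -0.17, Atp2b4 at -0.50, Slc9c1 at -0.56 and Prkaca at -0.91. Carm1 itself was at 1.28. Over all genes 19.3% were called higher and 17.5% lower in this test, and 5.47% and 45.1% on total-count scaling. The call of Kcnu1 was lost in 6 of the 8 fits with 1 library left out and in DESeq2 (adjusted p up to 0.16), and that of Cabyr in 4 of them (adjusted p up to 0.088). Under total-count scaling Adcy10 no longer passed (0.03, adjusted p 0.53), and Catsperg1, Cabyr and the summed γ genes were below 0.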

How the results depend on the processing

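The scaling mattered most. Under total-count scaling and with totals taken without the 50 most abundant genes, in that order, the following turned. Between labels in elongating cells these were Catsperg1 (-0.11 and -0.049), Adcy10 (-0.40 and -0.34), Cabyr (-0.27 and -0.21), Psmd8 (-0.35 and -0.29), Spred3 (-0.26 and -0.20) and Yif1b (-0.13 and -0.068), and Plcz1 under the first alone (-0.036). In round cells these were Catsper3 (-0.070 and -0.067), Catsperz (-0.039 and -0.037), Lrrc52 (-0.031 and -0.028) and Atp2b4 (-0.081 and -0.078), none of them called. Between the stages' differences these were Catsperg1 (-0.15 and -0.090), the summed γ genes (-0.076 and -0.016) and Cabyr (-0.28 and -0.22). Elongating against round in KO-labelled cells turned for Catsperg2 (-1.30 and -0.83), Catsperd (-1.92 and -1.46) and, under the first, the summed γ genes (-0.051), and in WT cells for Catsperd (-1.30 and -0.90). In each of the 5 contrasts 1 member was then called higher in place of 2. In edgeR Catsperd in KO-labelled cells was -0.14 between the stages. That test called 4 members higher in round KO-labelled cells (4 too in the fit of the round libraries alone). It called 1 higher in elongating than in round WT cells. The shares of all genes called in these fits are not given here.

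Leaving out 1 library at a time gave 1 to 4 members called higher and 1 to 2 lower in round cells, 3 to 5 lower in the difference between stages, and 1 to 2 higher in elongating against round WT cells. The differences that changed sign were Catsperd in elongating cells (-0.083 to 0.035), Catsperd between the stages in KO-labelled cells (-0.044 to 0.075), Catsper3 (-0.056 to 0.095) and Atp2b4 (-0.0028 to 0.020) in round cells, and Zfp790 in elongating cells (-0.82 to 0.13), none of them called.

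The log2 level of Catsperg2 against the other members, not per length, was 1.72, -0.70, 0.14 and -0.30 in elongating KO-labelled, elongating WT, round KO-labelled and round WT cells. Its sign has no meaning without the lengths, and per kb of merged exons, chosen after seeing the data, it was 0.57, -1.85, -1.01 and -1.45. Not per length it was 1.82, -0.61, 0.39 and -0.16 in the same order with their median in place of the mean, and the round difference 0.55. Without Catsperg1 among the others it was 2.33 in elongating KO-labelled, -0.23 in elongating WT and -0.29 in round WT cells, and the elongating difference 2.55. Per coding length Catsperg2 held place 2 in elongating and 6 in round KO-labelled cells. Same-numbered libraries did not deviate together (correlations -0.01 to 0.03). This cannot show whether they shared animals or a preparation, because the spread within a group may be technical. A replicate block left 2 members called higher and 5 lower in elongating and 2 and 2 in round cells, lost the stage difference of Kcnu1 (-0.17, adjusted p 0.064) and gained that of Lrrc52 (-0.39, adjusted p 0.046). The share of all genes called with the block is not given here. Of the single-gene alternatives, 1792 kept direction and call and 41 changed direction. With the direction kept, 51 gained a call and 72 lost it. Causes were not tested. The low reads of Zfp84, Zfp790 and Catspere2 limit their precision.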
